A study of Mus musculus with 11 samples.

Results

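The genes described here are the interleukin-1 and interleukin-18 system with the inflammasome: Il1a, Il1b, Il1rn, Il1r1, Il1r2, Il18, Il18r1, Il18bp, Casp1 and Nlrp3. They were taken by symbol from the table of gene expression in mouse airway, which lists 21899 genes, and all 10 were found in it and passed the filter on low values. The airway of male wild-type BALB/c mice aged 6 to 8 weeks was examined on day 25 in 3 groups. The PBS group (3 libraries) was not sensitized and received PBS alone. The OVA/LPS/Vehicle group (4 libraries) was sensitized with ovalbumin and alum on days 0 and 7, was given ovalbumin by the nose on days 14 to 17 and LPS, 50 ng a dose, on days 19 and 21, and received the vehicle into the trachea. The OVA/LPS/GGsTop group (4 libraries) was treated in the same way but received GGsTop, an inhibitor of γ-glutamyl transferase, at 0.5 mg/kg on days 21 to 23. The vehicle libraries are labelled 12, 34, 56 and 78 and the others carry numbers starting at 1. Whether the former are pools, and whether each library is a single mouse, is not given in the sources used here, so the p-values measure the spread between these libraries.

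Interleukin-1α and interleukin-1β bind the receptor IL1R1 and set off signalling through the adaptor MYD88 to NF-κB, and interleukin-18 acts in the same manner through IL18R1. The antagonist IL1RN, the decoy receptor IL1R2 and the binding protein IL18BP hold these cytokines in check. Interleukin-1β and interleukin-18 are made as inactive precursors, which are cut by caspase-1 once a sensor such as NLRP3 has assembled an inflammasome. In the airway, myeloid cells are known as the main source of interleukin-1β, and epithelial cells store interleukin-18 and interleukin-1α. RNA levels of the precursors say nothing of how much protein was cut or released.

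The deposited values are FPKM, fragment numbers scaled to exon length and library size, and fold changes are given as log2 of FPKM + 1, from limma. The libraries imply between 14513136 and 18632382 fragments each. The sum of the airway epithelium markers was high in all libraries, at 31780.2 to 39445 FPKM in PBS, 35778 to 54624 FPKM in OVA/LPS/Vehicle and 43116 to 49137 FPKM in OVA/LPS/GGsTop. Most of each sum was Scgb1a1, at 26145 to 47905 FPKM. Bpifa1, of the same list, differed widely, from 29.1 FPKM in OVA/LPS/GGsTop 3 and 42.0 FPKM in PBS 3 to 4708 FPKM in OVA/LPS/GGsTop 4. Krt8 varied less, from 78.8 to 190 FPKM. The labels name the tissue trachea, whereas the paper describes dissected airway. The alveolar gene Sftpc was present in all libraries at 3541 FPKM or more, and the cartilage list summed to 0.691, 1.03 and 0.562 FPKM in PBS 3, OVA/LPS/GGsTop 1 and OVA/LPS/GGsTop 3 against 8.47 FPKM or more in the other 8 libraries. Thyroid and parathyroid markers summed to 97.5, 263 and 533 FPKM in OVA/LPS/Vehicle 12, 34 and 56 and to 1.91 FPKM or less elsewhere, and thymus markers to 23.6 FPKM in OVA/LPS/Vehicle 12 and to 0.348 FPKM or less elsewhere. The libraries also differed in how the level of a gene depended on its GC content. The slope was −0.261 to −0.19 log2 units per 10 GC points in OVA/LPS/Vehicle and 0.0464 to 0.108 in OVA/LPS/GGsTop, and PBS 3, at 0.533, stood apart from the other PBS libraries, at 0.0611 and 0.0484. For this reason GC-corrected values are also given for many of the results. All vehicle libraries had negative slopes and all other libraries positive ones, so the slope cannot be told apart from the vehicle group. The correction removes differences between groups that follow GC content, whatever their source.

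On the FPKM scale, which divides by exon length, Il18r1 had the highest level of the 10 genes in each group, at 28.8 ± 4.30 FPKM in PBS (mean ± SD, n = 3), 25.2 ± 2.63 FPKM in OVA/LPS/Vehicle (n = 4) and 24.2 ± 0.338 FPKM in OVA/LPS/GGsTop (n = 4). In no group did its libraries overlap with those of the next gene. Il1b, Il18 and Il1r1 followed, with means between 9.12 and 14.1 FPKM, and their order among themselves was not resolved, since the libraries of neighbours overlapped. A gap without overlap separated these 3 genes from Il1a, at 4.66 to 5.73 FPKM. Il18bp, Casp1, Il1rn and Nlrp3 had means between 1.14 and 4.87 FPKM, where neighbours in the order overlapped. Il1r2 had the lowest mean in every group, and it was clear of the next gene in PBS but not in the other groups. The mean of Il1r2 was 0.968 ± 0.136 FPKM in PBS, and its value rests on 18 to 45 fragments a library. The other 9 genes rest on 54 to 2308 fragments. Il1r2 (40074079 to 40125231), Il1r1 (40225080 to 40317257) and Il18r1 (40465552 to 40500854) share a stretch of chromosome 1 on the forward strand of GRCm38, and Il1a (129299610 to 129309972) and Il1b (129364570 to 129371139) are neighbours on the reverse strand of chromosome 2. Il1rn is on the same chromosome (24336853 to 24351494), Il18 on chromosome 9 (50554827 to 50581840), Il18bp on chromosome 7 (102014885 to 102018690) and Nlrp3 on chromosome 11 (59541568 to 59566956). Exons of genes on the other strand cover 11.2% of the exon bases of Il1a, 2.64% of those of Il18bp and 1.31% of those of Il1b, and whether the counting used strand is not given in the sources used here.

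**Figure D1:**
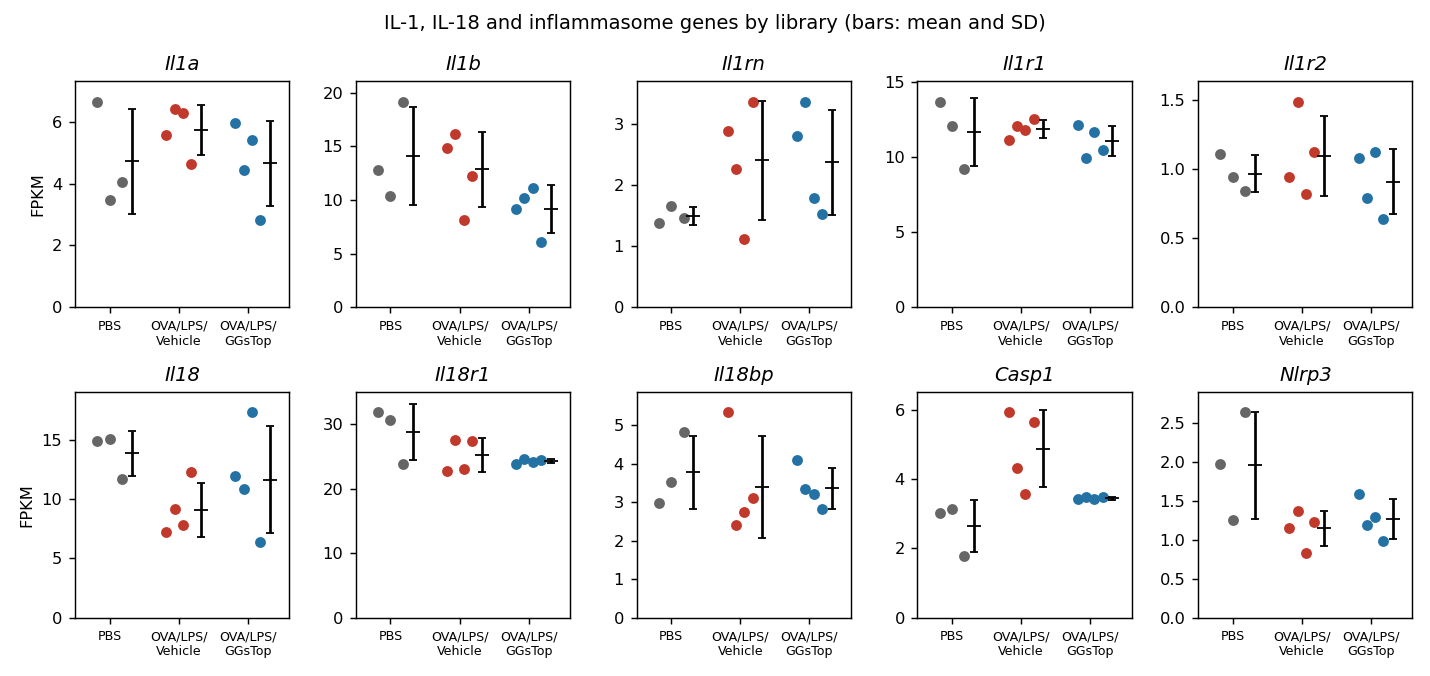
FPKM of the 10 genes in each library of the PBS (grey), OVA/LPS/Vehicle (red) and OVA/LPS/GGsTop (blue) groups, with the mean and SD beside the points. The Casp1 libraries of OVA/LPS/Vehicle, at 3.58 to 5.92 FPKM, lie above those of both other groups, while the vehicle group overlaps with each of the other groups for the other 9 genes.

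The first comparison asked what ovalbumin and LPS changed in the airway. Casp1 was higher in OVA/LPS/Vehicle than in PBS and was the single gene of the 10 that passed the test, against 38% of all 14004 genes tested in this comparison. The agonists Il1a and Il1b, the receptors Il1r1 and Il1r2, and Il18bp overlapped between the groups and did not pass it. At an unadjusted p under 0.05 there were 2 of the 10 genes, Casp1 and Nlrp3, against 49.6% of all genes. The libraries of the groups did not overlap for 1 of the 10 genes, against 44.1% of all genes. The median log2 fold change was −0.04 over the 10 genes and −0.0148 over all genes tested.

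**Figure D2:**
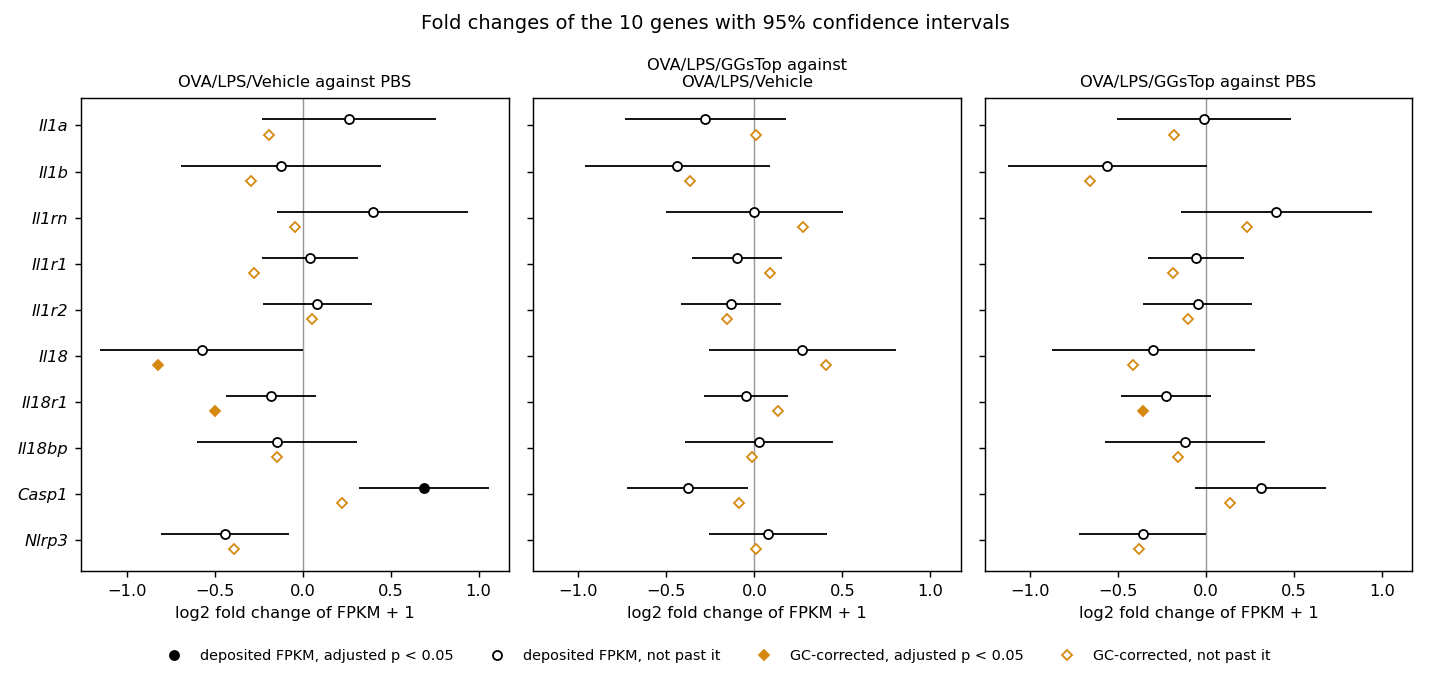
Log2 fold changes of the 10 genes in the 3 comparisons, from the deposited FPKM (circles, with 95% confidence intervals) and after correction for GC content (diamonds). Filled symbols passed an adjusted p under 0.05. Casp1 in OVA/LPS/Vehicle against PBS is the sole filled circle, and its corrected value, 0.22, is open.

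Casp1, which encodes the protease that matures interleukin-1β and interleukin-18, was measured at 3.01, 3.15 and 1.78 FPKM in PBS 1 to 3. It reached 5.92, 4.32, 3.58 and 5.65 FPKM in OVA/LPS/Vehicle 12, 34, 56 and 78, so that every vehicle library stood above every PBS library. The log2 fold change was 0.69 ± 0.17 (SE, with an adjusted p of 0.0114 by limma). After GC correction the difference was 0.22 and did not pass (adjusted p = 0.232). The FPKM of Casp1 came out as whole fragments with an exon length of 3136 bases, which differs from the 1497 bases of the annotation used for GC content (41.1% GC), so that this correction rests on another gene model than the deposited value. The library with the lowest Casp1 was PBS 3, which also had the steepest GC slope, and without it the log2 fold change was 0.51 (adjusted p = 0.0417). With PBS 3, OVA/LPS/GGsTop 1 and OVA/LPS/GGsTop 3 left out, the libraries with little cartilage RNA, it was 0.51 and missed the threshold (adjusted p = 0.0640). With OVA/LPS/Vehicle 78 as the single vehicle library, whose thyroid and thymus lists were no higher than those of the other groups, it was 0.89, with an adjusted p of 0.205, in a fit where this library was assumed to vary like the other groups. In tissue RNA, a higher level in the same cells and more cells that express the gene cannot be told apart.

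Casp1 lies on chromosome 9 (GRCm38, 5298517 to 5307265, forward strand), next to Casp4 (5308828 to 5336783, forward strand), which encodes caspase-11, the mouse sensor of cytosolic LPS. Casp4 was 4.67, 4.24 and 4.14 FPKM in the PBS libraries and 8.64, 8.44, 6.75 and 7.60 FPKM in the vehicle libraries. As with Casp1, no vehicle library overlapped with PBS. Its log2 fold change was 0.72 ± 0.15 (SE, with an adjusted p of 0.00638). It was 0.69 both without PBS 3 (adjusted p = 0.0214) and without the 3 libraries of little cartilage RNA (adjusted p = 0.0115), and 0.14 after GC correction (adjusted p = 0.603). With 38.1% GC in its longest transcript, Casp4 is lower in GC content than Casp1.

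The 250 bases before the RefSeq starts of these neighbouring genes are shown because both genes were higher in OVA/LPS/Vehicle (RefSeq, GRCm38.p6, forward strand, 5′ to 3′). Capitals mark the core of NF-κB sites, which is GGG, any 3 bases and TTCC, on either strand.
Casp1, chr9:5298267-5298516: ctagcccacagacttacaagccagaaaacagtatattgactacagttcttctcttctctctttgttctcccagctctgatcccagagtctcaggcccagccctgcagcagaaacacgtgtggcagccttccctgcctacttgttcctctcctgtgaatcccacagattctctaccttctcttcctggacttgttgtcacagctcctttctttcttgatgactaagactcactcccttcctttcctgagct
Casp4, chr9:5308599-5308848: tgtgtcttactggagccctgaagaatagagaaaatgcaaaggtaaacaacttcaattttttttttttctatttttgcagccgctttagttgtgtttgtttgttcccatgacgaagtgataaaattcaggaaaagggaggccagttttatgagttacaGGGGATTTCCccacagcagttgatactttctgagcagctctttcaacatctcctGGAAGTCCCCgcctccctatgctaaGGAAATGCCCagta
Casp4 held 3 matches to this core, whose first bases lay at −93, −39 and −14 relative to the start, and Casp1 held none. The core was found in 4.60% of the 27025 genes whose windows of this length were searched. Matches to the ISRE core, GAAA, any 2 bases and GAAA (3.04% of genes), the GAS core TTCNNNGAA (7.18%), the AP-1 site TGANTCA (6.87%) and the TATA box TATAAA (12.97%) were not found in either window. A match to letters is a description and not a measured site. Among the other members, the NF-κB core was found in windows of Il1rn, at −51, and Il1r1, at −232, in both cases before a start inside the gene. The TATA box was found in those of Il1a (−32), Il1b (−31) and, on the other strand, Il18 (−175), and the AP-1 site in those of Il1a (−12) and Il1rn (−141). The GAS core was found in those of Il1r2 (−111) and Il18r1 (−219 and −152), for both genes before a start inside the gene. Where RefSeq gives a member more than 1 start, each start was searched, whereas the shares over all genes rest on 1 window a gene.

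Of the interleukin-18 axis, the cytokine Il18 was 14.9, 15.1 and 11.7 FPKM in PBS 1 to 3 and 7.20, 9.14, 7.85 and 12.3 FPKM in OVA/LPS/Vehicle 12, 34, 56 and 78. Of the vehicle libraries, 3 lay under all PBS libraries, and the fourth, 78, lay within the PBS range. The log2 fold change of −0.57 (SE 0.26) did not pass on the deposited values (adjusted p = 0.102), and the GC-corrected value was −0.82 and passed (adjusted p = 0.0473). Il18r1, the receptor chain that binds interleukin-18, was 31.8, 30.7 and 23.8 FPKM in PBS and 22.8, 27.6, 23.1 and 27.3 FPKM in the vehicle group. Here PBS 3 was within the vehicle range and the other PBS libraries were above it. The log2 fold change was −0.18 ± 0.12 (SE, with an adjusted p of 0.234), against −0.50 after GC correction (adjusted p = 0.0108) and −0.30 without PBS 3 (adjusted p = 0.0450). With OVA/LPS/Vehicle 78 as the single vehicle library, the log2 differences were −0.15 for Il18 and −0.06 for Il18r1. The binding protein Il18bp ranged from 2.98 to 4.82 FPKM in PBS and from 2.40 to 5.33 FPKM in the vehicle group, with a log2 difference of −0.15 (95% confidence interval −0.60 to 0.31, adjusted p = 0.591). Its highest vehicle library, 12, was also the one with thymus markers and had the highest summed level of T cell and NK cell markers, 65.1 FPKM against 15.7 to 38.5 FPKM in the other 10 libraries. Cd4, Cd3g and Cd3d were highest in this library, at 11.4, 10.9 and 9.28 FPKM, but not all markers followed the sum. Nkg7 was 4.02 FPKM there against 5.88 FPKM in PBS 1, and Il7r was 6.83 FPKM against 7.61 FPKM in OVA/LPS/Vehicle 56. The part of these markers in the level of Il18bp was not tested.

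Nlrp3, which encodes the sensor, was 1.96, 1.26 and 2.63 FPKM in PBS and 1.14, 1.37, 0.835 and 1.22 FPKM in the vehicle libraries. PBS 2 lay within the vehicle range, and PBS 1 and PBS 3 lay above it. The log2 fold change of −0.44 (SE 0.17, unadjusted p = 0.0217, limma) had an adjusted p of 0.0549. It was −0.62 without PBS 2, which passed (adjusted p = 0.00933), and −0.28 without PBS 3 (adjusted p = 0.225). The GC-corrected value was −0.39 (adjusted p = 0.125). Casp1 and Nlrp3, both parts of the inflammasome, had log2 fold changes of opposite sign in this comparison. After GC correction the signs stayed opposite, at 0.22 and −0.39, but neither gene passed. Nlrp3 has 51.0% GC and Casp1 41.1%, and the part of GC content in this contrast was not tested.

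The interleukin-1 agonists did not pass the test. Il1b was 12.8, 10.4 and 19.2 FPKM in PBS and 14.9, 16.2, 8.16 and 12.2 FPKM in OVA/LPS/Vehicle, and the groups overlapped. The log2 difference was −0.12 (95% confidence interval −0.69 to 0.45, adjusted p = 0.724), and it was 0.11 without PBS 3, the library with the highest Il1b of all 11. Il1a, which encodes the agonist that is active without cleavage, ranged from 3.46 to 6.66 FPKM in PBS and from 4.64 to 6.41 FPKM in the vehicle group, a log2 difference of 0.27 (95% confidence interval −0.23 to 0.76, adjusted p = 0.360) that was −0.19 after GC correction. Il1rn, the antagonist, was 1.38, 1.67 and 1.45 FPKM in PBS and 2.89, 2.27, 1.11 and 3.36 FPKM in the vehicle libraries. All but 1 of the vehicle libraries, 56, exceeded every PBS library. The log2 difference of 0.40 (SE 0.25) had an adjusted p of 0.216, and without library 56 it was 0.61 (adjusted p = 0.0499). The antagonist and the sum of the agonists are compared further down as a ratio. The signalling receptor Il1r1 ranged from 9.19 to 13.7 FPKM in PBS and from 11.1 to 12.5 FPKM in the vehicle group, with a log2 difference of 0.04 (95% confidence interval −0.23 to 0.31, adjusted p = 0.809). For the decoy receptor Il1r2 the difference was 0.08 (95% confidence interval −0.22 to 0.39, adjusted p = 0.650).

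The second comparison asked what GGsTop changed in the airway of mice given ovalbumin and LPS. None of the 10 genes passed limma's test, against 8.71% of all genes tested. With limma voom on the recovered fragments 0 passed, where 468 of 13679 genes were higher and 302 lower. By limma, 1 of the 10 had an unadjusted p under 0.05, against 30.8% of all genes. This was Casp1, which was 3.41, 3.47, 3.42 and 3.49 FPKM in OVA/LPS/GGsTop 1 to 4, below all libraries of the vehicle group. The 4 GGsTop libraries lay close together, with 158 to 169 fragments each, whereas the vehicle libraries held 179 to 296. The log2 fold change was −0.38 (SE 0.16, unadjusted p = 0.0331, limma) with an adjusted p of 0.130, and the GC-corrected value was −0.09 (adjusted p = 0.721). Without PBS 3, which enters this comparison through the shared estimate of the spread, the same fold change had an adjusted p of 0.0492. Non-overlapping groups were found for 1 of the 10 genes, against 29.7% of all genes. The median log2 fold change was −0.07 over the 10 genes and 0.0313 over all genes.

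Of the agonists, Il1b was 9.16, 10.2, 11.1 and 6.06 FPKM in OVA/LPS/GGsTop 1 to 4. It had a lower mean than in the vehicle group, 9.14 ± 2.21 against 12.9 ± 3.54 FPKM (mean ± SD, n = 4 each), with overlapping libraries. The log2 difference was −0.44 (95% confidence interval −0.97 to 0.09, adjusted p = 0.231). Il1a ranged from 2.81 to 5.95 FPKM, a log2 difference of −0.28 (95% confidence interval −0.74 to 0.18, adjusted p = 0.378), and after GC correction the difference was 0.0077. The antagonist Il1rn was 2.81, 3.37, 1.79 and 1.53 FPKM, overlapping with the vehicle group, and the 95% confidence interval of the log2 difference was −0.50 to 0.50. Il18 was 11.98, 10.9, 17.3 and 6.36 FPKM and spanned the whole range of the vehicle libraries, with a log2 difference of 0.27 (95% confidence interval −0.26 to 0.81, adjusted p = 0.465). Il18r1 was 23.8, 24.6, 24.1 and 24.4 FPKM and the difference was −0.05 (95% confidence interval −0.28 to 0.19, adjusted p = 0.793). For Nlrp3, at 1.59, 1.19, 1.30 and 0.983 FPKM, it was 0.08 (95% confidence interval −0.26 to 0.41, adjusted p = 0.759). The remaining members Il1r1, Il1r2 and Il18bp had log2 differences of −0.10, −0.13 and 0.03 with adjusted p-values of 0.586, 0.508 and 0.945. Il18r1 had the narrowest interval of the 10 genes in this comparison and Il18 and Il1b the widest ones, and smaller differences of Il1b and Il18 than these intervals hold were not detectable with 4 libraries in each group. On the scale of log2(FPKM + 1), the added 1 makes fold changes and intervals smaller for genes of low level, such as Il1r2 and Nlrp3. Interval widths are therefore not alike in meaning across the genes.

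The third comparison asked how the airway of GGsTop-treated mice differed from that of PBS mice, and it shares its libraries with both comparisons above. No member passed limma's test, against 2.88% of all genes tested, and 0 had an unadjusted p under 0.05 (20.5% of all genes). With limma voom 0 passed, where 222 of 13679 genes were higher and 79 lower. The groups did not overlap for 1 member, Casp1, against 14.8% of all genes. All 4 GGsTop libraries had more Casp1 than the 3 PBS libraries, but the log2 fold change of 0.31 (SE 0.17) had an adjusted p of 0.324. For Il1b, the mean was 9.14 ± 2.21 FPKM in OVA/LPS/GGsTop (n = 4) and 14.1 ± 4.57 FPKM in PBS (n = 3), a log2 difference of −0.56 (95% confidence interval −1.13 to 0.0064, adjusted p = 0.248). Nlrp3 had a log2 difference of −0.36 (95% confidence interval −0.72 to 0.00087, adjusted p = 0.245), which was −0.54 without PBS 2 (adjusted p = 0.0480). Il18r1 had one of −0.23 (95% confidence interval −0.48 to 0.03, adjusted p = 0.292), and the GC-corrected value was −0.36 and passed (adjusted p = 0.0478). The other 6 genes had log2 differences between −0.30 for Il18 and 0.40 for Il1rn, with adjusted p-values of 0.381 or more. The median over the members was −0.09 and that over all genes 0.00686.

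The balance of inhibitors and their targets was described as ratios of FPKM within each library, without a test. Il1rn relative to the sum of Il1a and Il1b was 0.0710, 0.121 and 0.0626 in PBS 1 to 3, 0.141, 0.101, 0.0769 and 0.199 in OVA/LPS/Vehicle 12, 34, 56 and 78, and 0.186, 0.230, 0.108 and 0.172 in OVA/LPS/GGsTop 1 to 4. The means were 0.0847 ± 0.0314 (SD, n = 3), 0.130 ± 0.0536 (n = 4) and 0.174 ± 0.0506 (n = 4), and each group overlapped with the next. With GC-corrected values the means were 0.0956, 0.114 and 0.181. The decoy receptor Il1r2 amounted to 0.0839 ± 0.00705, 0.0922 ± 0.0227 and 0.0818 ± 0.0156 of Il1r1 in the 3 groups, and in no library did it exceed 0.124 of it. Il18bp relative to Il18 was 0.282 ± 0.114, 0.401 ± 0.230 and 0.319 ± 0.106. The vehicle value rests in part on library 12, at 0.741, while the other vehicle libraries were between 0.252 and 0.349.

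**Figure D3:**
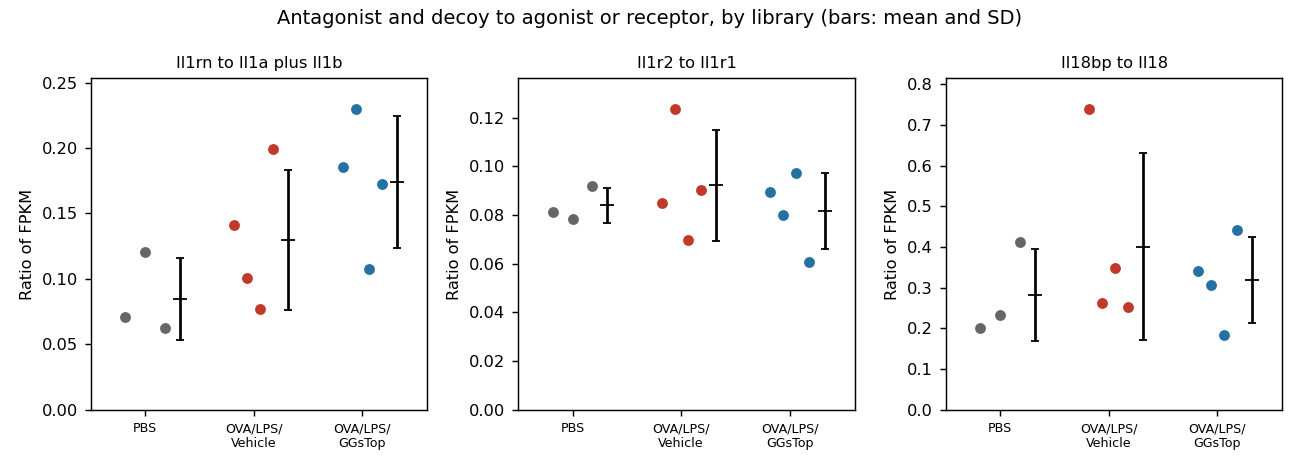
Ratios of FPKM of the antagonist Il1rn to Il1a plus Il1b, of the decoy receptor Il1r2 to Il1r1 and of Il18bp to Il18, 1 point per library with the mean and SD of the group. The groups overlap in all 3 panels, and the single high value of Il18bp to Il18, 0.741, is OVA/LPS/Vehicle 12.

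The levels of some members moved with other measures of the libraries. In each group the library with the lowest Il1b was also the one with the lowest sum of the 11 neutrophil markers, namely PBS 2 at 115.8 FPKM, OVA/LPS/Vehicle 56 at 147.4 FPKM and OVA/LPS/GGsTop 4 at 160.3 FPKM. PBS 3, highest in Il1b, was also highest in the neutrophil sum, at 366 FPKM. At the upper end the order was not the same in the other groups. OVA/LPS/GGsTop 2 had the highest neutrophil sum of its group, 313 FPKM, above every vehicle library, while its Il1b was below that of OVA/LPS/GGsTop 3 (neutrophil sum 211 FPKM) and of 3 vehicle libraries, and OVA/LPS/Vehicle 78, highest of its group at 274 FPKM, had less Il1b than 12 and 34. The sums of the groups overlapped, with 116 to 366 FPKM in PBS, 147 to 274 FPKM in OVA/LPS/Vehicle and 160.3 to 313 FPKM in OVA/LPS/GGsTop. All 11 markers were detected, led by S100a9, which was 99.6, 57.6 and 222 FPKM in the PBS libraries. S100a8 and Csf3r were also highest in PBS 3, but not all markers followed the sum. Retnlg was 31.9 FPKM in PBS 3 against 84.4 FPKM in OVA/LPS/GGsTop 2, and Cxcr2 was 6.15 FPKM against 7.80 FPKM in OVA/LPS/Vehicle 34. In OVA/LPS/GGsTop 4, lowest of its group by the sum, Retnlg was 46.3 FPKM, above the 29.0 FPKM of OVA/LPS/GGsTop 3. The sum of the 10 monocyte and macrophage markers, led by Lyz2, was 2458 to 3414 FPKM in PBS, 2006 to 2875 FPKM in the vehicle group and 1936 to 3218 FPKM with GGsTop. OVA/LPS/GGsTop 4 had the lowest macrophage, dendritic cell, endothelial and alveolar sums of its group, and was the lowest of its group for 7 of the 10 members, against 36.5% of all genes tested. Lyz2 alone gave 1828 of the 1936 FPKM of its macrophage sum. Csf1r and Mrc1 were also lowest of the group in this library, but other macrophage markers were not. Adgre1 was 10.9 FPKM there against 8.59 and 7.50 FPKM in OVA/LPS/GGsTop 1 and 3, and Cd68 was 38.2 against 35.9 FPKM in OVA/LPS/GGsTop 1. PBS 3 was lowest in its group for 5 members, against 44.1% of all genes, and OVA/LPS/Vehicle 56 for 5 members, against 29.9%. The part of these cell types in the levels of the members was not tested.

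**Figure D4:**
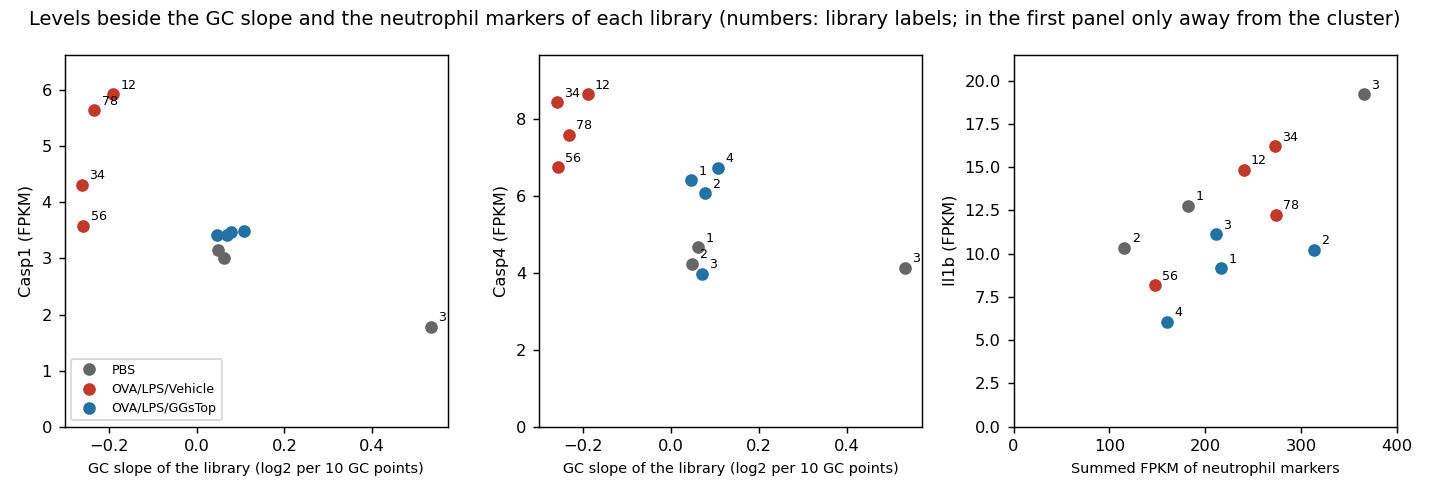
Left and centre, FPKM of Casp1 and Casp4 against the GC slope of each library. Right, FPKM of Il1b against the summed FPKM of 11 neutrophil markers. Each point is 1 of the 11 libraries. The vehicle libraries with slopes of −0.261 to −0.19 have the highest Casp1, PBS 3 with a slope of 0.533 has the lowest, and PBS 3 is highest in both measures of the right panel.

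Across the 11 libraries, the genes whose log2(FPKM + 1) was most like that of Casp1 were Smap1 (Pearson r = 0.972), Tlr7 (0.959), which encodes an endosomal receptor for single-stranded RNA, and Asxl2 (0.943). These are given as a description, since the libraries share their groups and their GC slopes. Tlr7 was 1.79, 2.24 and 1.05 FPKM in PBS, 4.85, 3.02, 2.24 and 4.35 FPKM in OVA/LPS/Vehicle and 1.79, 2.70, 2.41 and 1.95 FPKM in OVA/LPS/GGsTop. As for Casp1, PBS 3 was the lowest library and OVA/LPS/Vehicle 12 the highest.

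Other genes of the interleukin-1 and interleukin-18 pathway were counted from a list of 44, of which 43 were in the table and 35 passed the filter. Between OVA/LPS/Vehicle and PBS, 3 of these 35 were higher and 9 lower, against 38% of all genes called in either direction. Among the genes below the filter was Pycard, which encodes the ASC adaptor that joins NLRP3 to caspase-1, with a mean of 0.373 FPKM over all libraries. The median log2 fold change of the 35 genes was −0.05. After GC correction 5 of the 35 were called, Nek7, Myd88, Tollip, P2rx7 and, outside the rule for named genes, Traf6. Of all 14004 genes tested, 1104 were then higher and 1806 lower. Without PBS 3, 6 of the 35 were called, where 1175 of all genes were higher and 1889 lower. With the libraries of little cartilage RNA left out, 9 of the 35 were called, where 1264 of all genes were higher and 2012 lower.

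The genes that were higher were Nek7, Il1rl1 and Casp4. Nek7, a kinase that binds NLRP3, was 16.6, 19.1 and 8.70 FPKM in PBS and 24.3, 27.8, 28.5 and 27.2 FPKM in OVA/LPS/Vehicle, with no overlap. Its log2 fold change was 0.89 ± 0.21 (SE, with an adjusted p of 0.00919), and it passed after GC correction as well, at 0.39 (adjusted p = 0.0386). Il1rl1, the receptor of interleukin-33, which lies between Il1rl2 and Il18r1 in the cluster of interleukin-1 receptor genes on chromosome 1, changed by 0.55 ± 0.18 (SE, with an adjusted p of 0.0351). The GC-corrected difference of Il1rl1 was 0.20 (adjusted p = 0.452), and the call was also lost without PBS 3 (0.52, adjusted p = 0.101) and without the 3 libraries of little cartilage RNA (adjusted p = 0.111). The third was Casp4, described above.

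The 9 genes that were lower are described in turn. Gsdmd, which encodes the pore-forming protein cut by caspase-1 and caspase-11, was 34.4, 25.9 and 40.3 FPKM in PBS and 22.5, 20.7, 18.1 and 20.9 FPKM in OVA/LPS/Vehicle. Casp1 and Gsdmd, enzyme and substrate, had log2 fold changes of opposite sign, with −0.66 ± 0.17 (SE, with an adjusted p of 0.0145) for Gsdmd. After GC correction neither of them passed, with −0.45 for Gsdmd (adjusted p = 0.0830). Ninj1, which ruptures the membrane after pore formation, changed by −0.51 ± 0.13 (SE, with an adjusted p of 0.0140), and the GC-corrected value was −0.14 (adjusted p = 0.368). P2rx7, the ATP-gated channel upstream of NLRP3, changed by −0.45 ± 0.10 (SE, with an adjusted p of 0.00858) and passed after GC correction, at −0.43 (adjusted p = 0.0184). Of the signalling genes, the adaptor Myd88 was 20.5, 18.7 and 22.4 FPKM in PBS and 12.7, 14.9, 12.7 and 14.9 FPKM in the vehicle libraries, a log2 fold change of −0.54 ± 0.10 (SE, with an adjusted p of 0.00449). Myd88 and Tollip, an inhibitor of the IRAK kinases, also passed after GC correction, at −0.37 and −0.28. The log2 fold changes of the inhibitory receptor Sigirr, of Tab1, which activates the kinase TAK1, and of the kinases Irak2 and Irak4 were −0.53, −0.54, −0.35 and −0.28, with adjusted p-values of 0.0178, 0.0232, 0.0126 and 0.0383. Tab1, Sigirr and Ninj1, whose longest transcripts have 57.2 to 59.4% GC, did not pass after GC correction, and neither did Irak2 and Irak4.

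**Figure D5:**
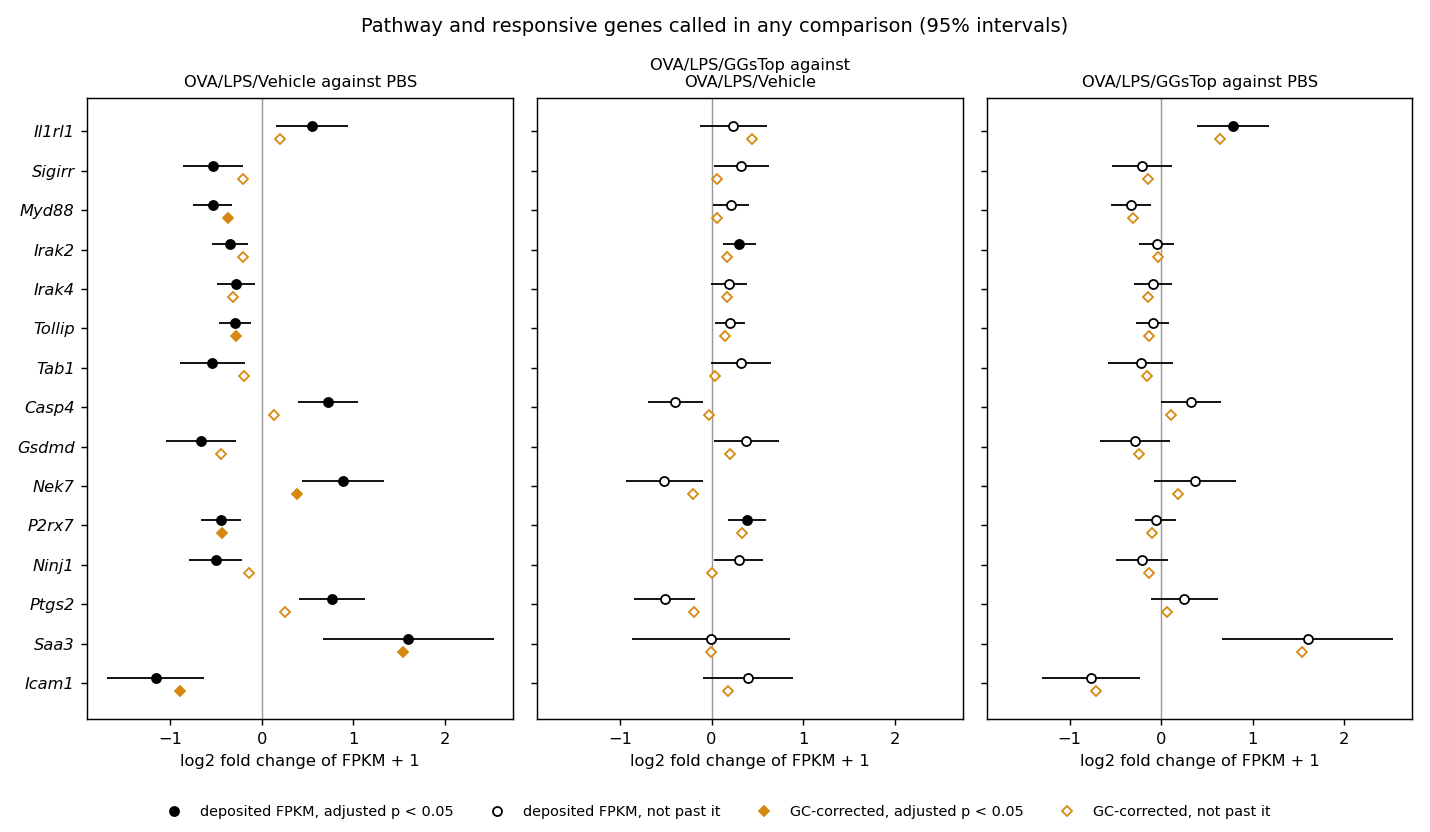
Log2 fold changes of the 12 pathway genes and, in the last 3 lines, the responsive genes Ptgs2, Saa3 and Icam1 in the 3 comparisons, from the deposited FPKM (circles, 95% confidence intervals) and after correction for GC content (diamonds). Filled symbols passed an adjusted p under 0.05. The filled circles are mostly in the left panel, and Irak2 and P2rx7 are the filled ones in the centre.

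Between OVA/LPS/GGsTop and OVA/LPS/Vehicle, 2 of the 35 pathway genes were higher and 0 lower by limma, against 8.71% of all genes in either direction, and 12 had an unadjusted p under 0.05, against 30.8% of all genes. P2rx7 was 7.79, 7.83, 7.50 and 7.11 FPKM in OVA/LPS/GGsTop 1 to 4 and 6.17, 5.64, 4.91 and 5.52 FPKM in the vehicle libraries, with a log2 fold change of 0.39 ± 0.09 (SE, with an adjusted p of 0.0343). Irak2 had one of 0.30 ± 0.08 (SE, with an adjusted p of 0.0456). After GC correction the values were 0.34 for P2rx7 (adjusted p = 0.0967) and 0.17 for Irak2 (adjusted p = 0.258), and neither passed. Casp4 was 6.41, 6.07, 3.98 and 6.74 FPKM with GGsTop, below all vehicle libraries though the highest was just under the lowest of them, with a log2 difference of −0.40 ± 0.14 (SE, with an adjusted p of 0.0872) that did not pass and was −0.03 after GC correction. Nek7 had the largest difference of the 35 in size, −0.51 ± 0.19 (SE, with an adjusted p of 0.1001), with 20.1, 17.3, 16.5 and 20.5 FPKM in the GGsTop libraries, below all vehicle libraries. It did not pass and was −0.20 with GC correction. Nek7 passed without PBS 3 (−0.51, adjusted p = 0.00498) and without the libraries of little cartilage RNA (−0.49, adjusted p = 0.0309). PBS 3 is in neither group compared, so leaving it out alone changed the shared estimate of the spread and not the fold change. The median over the 35 genes was 0.10. Leaving out any 1 of the GGsTop libraries, or any 1 of the vehicle libraries, left 0 or 1 pathway gene called. Over all genes, these fits called from 20 higher and 4 lower without OVA/LPS/GGsTop 1 to 866 higher and 186 lower without OVA/LPS/GGsTop 4.

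In OVA/LPS/GGsTop against PBS, 1 pathway gene of 35 passed the test, against 2.88% of all genes. It was Il1rl1, at 2.62, 2.78, 1.86 and 2.57 FPKM in the GGsTop libraries and 0.799, 1.28 and 0.934 FPKM in the PBS libraries, a log2 fold change of 0.78 ± 0.18 (SE, with an adjusted p of 0.0453). The GC-corrected value was 0.64 (adjusted p = 0.0775). With the replicate number as a block 0 pathway genes were called, and leaving out 1 library at a time gave 0 to 4, with 4 without PBS 2 and 3 without OVA/LPS/GGsTop 3. Il1rl2, the receptor of the interleukin-36 cytokines and neighbour of Il1rl1, had a log2 difference of 0.59 ± 0.15 (SE, with an adjusted p of 0.0537), and Casp8, a protease that can also cut pro-interleukin-1β, one of −0.55 ± 0.16 (SE, with an adjusted p of 0.0811). After GC correction that of Casp8 was −0.64 and passed (adjusted p = 0.0486). The members that lie in the receptor cluster on chromosome 1, Il1r1, Il1r2 and Il18r1, had differences of −0.06, −0.05 and −0.23, none of which passed.

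Of 10 genes known to respond to interleukin-1 or interleukin-18, 6 passed the filter, while Il6, Csf3, Ifng and Ptx3 did not. Between OVA/LPS/Vehicle and PBS, 2 were higher and 1 lower, against 38% of all genes called in either direction. With GC correction 3 of the 6 were called, Saa3, Icam1 and, outside the rule for named genes, Lcn2 (1.116, adjusted p = 0.0385), which encodes a siderophore-binding protein of neutrophils and epithelium and was 0.90 ± 0.34 (SE, with an adjusted p of 0.0571) without it, while Ptgs2 was lost. Of all 14004 genes tested, 1104 were higher and 1806 lower with this correction. Saa3, an acute-phase protein, was 1.04, 0.668 and 4.16 FPKM in PBS and 4.95, 7.43, 4.89 and 12.2 FPKM in the vehicle libraries, a log2 fold change of 1.60 ± 0.43 (SE, with an adjusted p of 0.0151), with PBS 3 well above the other PBS libraries. After GC correction it was 1.55 (adjusted p = 0.0337). Ptgs2, the inducible cyclooxygenase, had a difference of 0.77 ± 0.17 (SE, with an adjusted p of 0.00734), and the GC-corrected one was 0.25 (adjusted p = 0.251). Icam1, an adhesion molecule that is also strongly expressed by endothelium, was lower, with 83.4, 55.3 and 119.5 FPKM in PBS and 35.9, 39.8, 32.6 and 36.5 FPKM in the vehicle libraries, a log2 fold change of −1.16 ± 0.24 (SE, with an adjusted p of 0.00662). The sum of the 5 endothelial markers was 486 to 838 FPKM in PBS and 377 to 415 FPKM in the vehicle group, without overlap. The alveolar epithelial sum did not overlap either, at 9740.2 to 15501 FPKM in PBS and 4921 to 8159.6 FPKM in the vehicle group. Of the 5 alveolar markers, 3 had a lower and 2 a higher mean log2 level. The part of either cell type in the level of Icam1 was not tested. With GGsTop, none of the 6 passed against the vehicle group or against PBS (limma), and 2 had an unadjusted p under 0.05 in each comparison, against 30.8% and 20.5% of all genes. Ptgs2 had a log2 difference of −0.51 ± 0.15 (SE, with an adjusted p of 0.0570) against the vehicle group, with lower values in all 4 GGsTop libraries. The same difference passed without PBS 3 (−0.51, adjusted p = 0.0286), which enters this comparison only through the shared estimate of the spread. Saa3 was 5.05, 7.11, 4.72 and 12.8 FPKM with GGsTop. Zc3h12a, which encodes an RNase that degrades cytokine mRNA, had a log2 difference of 0.38 ± 0.17 (SE, with an adjusted p of 0.147).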

How the data were processed

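Airway RNA was sequenced from the PBS (3 libraries), OVA/LPS/Vehicle (4) and OVA/LPS/GGsTop (4) groups. The authors deposited FPKM (fragment numbers scaled to exon length and library size) as 1 table with a column per library. The submitters' processing notes name cutadapt 1.15, HISAT2 2.0.5, HTSeq 0.9.1 and the build mm39, with no role or order. The authors tested with DESeq, which needs counts. As FPKM are no counts, log2(FPKM + 1) was fitted here with limma 3.58.1 (R 4.3.3) over all 11 libraries with group as the single term and a mean-variance trend, keeping 14004 genes whose mean reached 0.5 FPKM. Two-sided p-values were adjusted over all genes tested (Benjamini-Hochberg), and calls needed an adjusted value under 0.05.

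Identifiers were matched to GENCODE M21 (GRCm38) for 21795 of 21899 genes, and coordinates, exon lengths and GC content were taken from it, not from mm39. GC content is that of the longest transcript of each gene. Values of 21376 genes (97.6%) were whole fragments in all libraries within 0.05 of a fragment, and totals of 14513136 to 18632382 fragments follow from them. Genes of few fragments are less precise. The GC correction subtracted a natural spline with 5 degrees of freedom from each library. Alternatives were another pseudocount, other filters, rescaling to 1 median or 1 FPKM total, no trend, array weights, only the groups compared, limma voom on 13679 genes with recovered fragments, each library left out and a replicate block. Those that leave out 3 libraries at once were added after seeing the data. The numbers 1 to 3 are shared by PBS and OVA/LPS/GGsTop, and the deviations of same-numbered libraries from their group means correlated at 0.367, 0.427 and 0.428. That a shared number marks a shared cage or day is not stated.

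The members, gene lists and tests were chosen with earlier results of these data known. Named are all members, pathway and responsive genes called in any comparison or among the 3 smallest p-values of a comparison, up to 5 genes a marker list by mean FPKM, and the 3 genes most alike to a called member. Promoters came from RefSeq (GRCm38.p6), where all 10 members were found. Fits were tested on simulated data. Tables and figures were made with numpy 2.4.6, matplotlib 3.10.9 and pandas 2.3.3 under Python 3.11.15.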

Additional observations from a re-analysis of the deposited data

How the results depend on the processing

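Of the fold changes of the 10 members over the settings that do not leave out a single library, 332 kept their direction and their side of the threshold, 13 newly passed it, 3 no longer passed and 29 changed sign. With 1 library left out, 306 kept both, 6 newly passed and 18 changed sign. Leaving out a library of the group not compared cannot change the fold change, so part of the 306 kept their direction by design. Il1r2 has no value under a minimum mean of 1 FPKM. With fewer than 5 libraries a group, differences within the confidence intervals given above cannot be resolved, and levels such as that of Il1r2 rest on few fragments. The cause of each change below was not tested.

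Over all genes tested in OVA/LPS/Vehicle against PBS, 2231 were higher and 3096 lower. These counts were 1232 and 4570 with the same FPKM total, and 3443 and 4473 with array weights. With only the 2 groups they were 1771 and 2610, and with GC correction 1104 and 1806. Without PBS 2 they were 3045 and 3395, and without PBS 3 they were 1175 and 1889. With the low cartilage libraries left out they were 1264 and 2012. In OVA/LPS/Vehicle against PBS, where 1 member was called, there were 4 with the same FPKM total, 5 with array weights, 2 with only the 2 groups and 2 with GC correction. Without 1 library there were 1 to 2, with 2 without PBS 2 (Nlrp3), PBS 3 (Il18r1), OVA/LPS/Vehicle 56 (Il1rn) or OVA/LPS/GGsTop 4 (Il18). With the thyroid and thymus libraries left out, and with the low cartilage libraries left out, there were 0. The 12 pathway genes became 21 with array weights, 5 with GC correction, 0 without the thyroid and thymus libraries and 6 to 15 without 1 library, of which 6 without PBS 3. In OVA/LPS/GGsTop against OVA/LPS/Vehicle, 1 member was called with array weights and 0 to 1 without 1 library. Over all genes tested, 966 were higher and 254 lower. These counts were 3232 and 1982 with array weights, and 2144 and 1447 without PBS 3. With the same FPKM total they were 2026 and 155, and with only the 2 groups 2119 and 1406. With GC correction they were 34 and 22, and with voom 468 and 302. The 2 pathway genes became 4 with the same FPKM total, 13 with array weights, 5 with only the 2 groups and 1 without the trend. They became 0 with the same median, GC correction, voom or without the thyroid and thymus libraries, and 0 to 6 without 1 library, with 6 without PBS 3. In OVA/LPS/GGsTop against PBS, 1 member was called with array weights, 1 with GC correction and 0 to 1 without 1 library. Over all genes tested, 288 were higher and 115 lower. These counts were 1379 and 1178 with array weights, and 386 and 208 with GC correction. Without PBS 2 they were 955 and 642, and without OVA/LPS/GGsTop 3 they were 549 and 228. The single pathway gene became 7 with array weights and 0 with no filter, only the 2 groups, voom, the replicate block, the replicate block with GC correction, or either set of 3 libraries left out, and 0 to 4 without 1 library.

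Fold changes of OVA/LPS/Vehicle against PBS changed sign with GC correction for Il1a (−0.19), Il1rn (−0.0449) and Il1r1 (−0.28), with array weights for Il1a (−0.14), Il1b (0.0083) and Il1r1 (−0.13), and with the same FPKM total for Il1r1 (−0.12) and Il1r2 (−0.0055). Without the low cartilage libraries they did so for Il1b (0.11), Il1r1 (−0.11) and Il18bp (0.0073). Without 1 library the ranges were −0.31 to 0.11 for Il1b, −0.11 to 0.16 for Il1r1, −0.0022 to 0.15 for Il1r2 and −0.34 to 0.0073 for Il18bp. Those of OVA/LPS/GGsTop against OVA/LPS/Vehicle changed with GC correction for Il1a (0.0077), Il1rn (0.28), Il1r1 (0.0878), Il18r1 (0.14) and Il18bp (−0.0163). They changed for Il1rn also with a pseudocount of 0.1 (0.0144), the same FPKM total (0.0641) and array weights (0.0233), for Il18r1 with the same FPKM total (0.0451) and for Il18bp with the same median (−0.0115). Without the low cartilage libraries the signs of Il1rn (0.0143), Il18 (−0.0885), Il18bp (−0.0665) and Nlrp3 (−0.0352) changed, and without the thyroid and thymus libraries that of Il18 (−0.15). Without 1 library the ranges were −0.21 to 0.14 for Il1rn and −0.0832 to 0.22 for Il18bp. Against PBS, the GGsTop group changed sign with array weights for Il18bp (0.16) and with the replicate block for Il1a (0.16) and Il1r2 (0.0222). Without 1 library the ranges were −0.17 to 0.22 for Il1a, −0.21 to 0.0579 for Il1r1, −0.10 to 0.0222 for Il1r2 and −0.24 to 0.0324 for Il18bp. The replicate block, which uses numbers 1 to 3 and leaves out OVA/LPS/GGsTop 4, called 0 members, as without it.

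Over all genes, rescaling to the same FPKM total moved the median log2 fold change to −0.152, 0.108 and −0.0566 in the 3 comparisons. It turned the 2231 higher and 3096 lower genes of OVA/LPS/Vehicle against PBS into 1232 and 4570, and the 966 and 254 of OVA/LPS/GGsTop against OVA/LPS/Vehicle into 2026 and 155. The latter were 344 and 354 with the same median. The split of OVA/LPS/GGsTop against PBS went from 288 and 115 to 250 and 243. The counts called over all alternatives ranged from 4 to 7916 around 5327, from 0 to 5214 around 1220 and from 29 to 2557 around 403. The 0 was by limma without the thyroid and thymus libraries, where 854 genes had an unadjusted p under 0.05.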

Other observations

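The marker lists that do not stand beside a member above were also summed. B cell markers, led by Cd79a, were 94.3 to 102 FPKM in PBS, 35.7 to 99.6 FPKM in OVA/LPS/Vehicle and 32.3 to 62.7 FPKM in OVA/LPS/GGsTop, and no GGsTop library reached the PBS range. Mast cell markers summed to 47.3 to 55.8, 31.2 to 35.6 and 24.9 to 32.9 FPKM, and the marker with the highest level was Kit, which other cells such as endothelium also express, at 46.1, 27.7 and 44.0 FPKM in PBS against 18.6, 22.2, 21.1 and 17.9 FPKM in the vehicle libraries. Between OVA/LPS/Vehicle and PBS, 4 of the 6 mast cell markers had a higher mean and 2 a lower one, with 1 called in each direction and a median log2 difference of 0.19, so that the sum and the median differed in sign. The protease Mcpt4 was 1.08, 2.85 and 0.484 FPKM in PBS and 3.32, 2.34, 3.06 and 1.57 FPKM in the vehicle libraries. Dendritic cell markers summed to 52.9 to 60.9, 42.7 to 56.3 and 38.3 to 56.5 FPKM. In the same comparison 5 of the 7 had a higher and 2 a lower mean log2 level, with 0 called higher and 1 lower by limma, 2 at an unadjusted p under 0.05 and a median of 0.034. Itgax was 10.4, 10.1 and 14.4 FPKM in PBS and 21.1, 15.1, 7.88 and 23.1 FPKM in the vehicle libraries, and Ccr7 15.1, 16.7 and 17.5 against 8.90, 5.12, 9.23 and 4.39 FPKM. Fibroblast markers overlapped between the groups, at 253 to 411, 231 to 355 and 247 to 452 FPKM. Squamous epithelial markers, of which Sprr3 was at 0 in every library, were 2.46 to 16.0, 13.4 to 19.6 and 1.26 to 38.0 FPKM. Adipocyte markers were 40.5 to 377, 248 to 622 and 29.6 to 435 FPKM and skeletal muscle markers 4.98 to 58.4, 40.5 to 114 and 15.4 to 80.1 FPKM. Both sums were low in PBS 3 and OVA/LPS/GGsTop 3. Alveolar epithelial markers were 9740.2 to 15501, 4921 to 8159.6 and 4237 to 11401 FPKM. The sums themselves were not tested.

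For none of the 20 sets of 4 libraries (10 members in the vehicle and the GGsTop group) was a library far from the others by Dixon's criterion. Casp1 had an SD of 0.752 FPKM in PBS, 1.11 FPKM in OVA/LPS/Vehicle and 0.040 FPKM in OVA/LPS/GGsTop, and Il18r1 also had its smallest SD with GGsTop, 0.338 FPKM. Il18 had its largest SD, 4.51 FPKM, in the GGsTop group. These spreads were not compared by a test.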
